A study of Mus musculus with 12 samples.

Results

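The genes that anchor heart cells to their surroundings were followed in whole mouse hearts 9 h after pressure overload. They comprise the integrins, the laminins, and the proteins that couple integrins to actin. Members were taken by name from the table, as every integrin alpha or beta chain, every laminin chain, and 24 adaptor genes, which gave 59 of the 13552 genes. Of these, 35 had an integrin or laminin name and 24 were adaptors. One of the 35, Itgb3bp, encodes a nuclear protein of the centromere that carries an integrin name but is no integrin chain, and it was kept apart from the role classes. A total of 46 members passed the filter on low values (1 RPKM or more in at least 3 of the 12 mice) and were tested among 11240 genes.

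Integrins are receptors made of 1 alpha and 1 beta chain that bind matrix proteins outside the cell and, through their short tails, talin and kindlin inside it. Talin links the receptor to actin directly and through vinculin and alpha-actinin, while the ILK-PINCH-parvin complex, focal adhesion kinase, paxillin and zyxin assemble around it and pass on signals. In the heart these adhesions sit at the costameres, where the Z-discs of the cardiomyocyte are tied to the laminin-rich basement membrane, and the adult cardiomyocyte receptor for laminin is the dimer of Itga7 and Itgb1. Laminins are trimers of an alpha, a beta and a gamma chain.

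Transverse aortic constriction (TAC) narrows the aorta and loads the left ventricle with pressure. RNA came from hearts of C57BL/6 mice (C57BL/6J in the study's methods) in 4 groups of 3, namely wild type (WT) and homozygous Bcl-xL S14A knock-in (KI) mice, each after sham surgery or TAC. The mice were males of 8 to 10 weeks, and KI mice carry alanine in place of serine at residue 14 of Bcl-xL in every cell, with the selection cassette removed by crossing to CMV-Cre mice. WT mice were bought from a supplier, so that genotype and colony cannot be told apart, and the substitution cannot be checked in a table of gene-level values. The values are in RPKM (a gene's reads divided by its exon length and by the reads of that library on genes), and each library held between 23649965 and 32452797 reads on genes. Changes are given as log2 fold changes of RPKM + 1 with the standard error from limma, and adjusted p is its Benjamini-Hochberg value over all genes tested. The 8 cardiomyocyte markers summed to 12930 to 23040 RPKM in the 12 hearts, and their ranges overlapped between all 4 groups. That sum is mostly Actc1, and single markers did move. In WT TAC hearts 1 of the 8 (Myh6, the adult myosin heavy chain, at -1.15 ± 0.26 (adjusted p = 0.0129)) was lower, with a median log2 fold change of −0.405 over the 8, in KI TAC hearts 1 of 8 was lower, and in KI TAC against WT TAC hearts 2 of 8 were higher. Their part in the results for members was not tested.

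TAC was accompanied by higher levels of many adhesion genes in both genotypes. Against WT sham, 15 of the 46 members passed the threshold in WT TAC hearts, 13 higher and 2 lower, where 11.6% of all genes tested passed it, 6.96% higher and 4.6% lower. Against KI sham, 21 members passed it in KI TAC hearts, 14 higher and 7 lower, where the background was 23.3%, with 8.57% higher and 14.7% lower. The share of members lower in KI was thus close to that of all genes. The values of TAC and sham mice did not overlap for 32 members in WT (35.1% of all genes) and for 25 in KI (38.3% of all genes). The median log2 fold change of the members was 0.42 in WT and 0.20 in KI, beside 0.035 and −0.10 over all genes. Both medians are over members that passed the filter, and 3 members, Itgam and Itgb3 among them, passed it in TAC hearts alone, while Itga11 and Lamb3 would not have passed it on the TAC hearts alone, so that a difference in these members was partly built in. A total of 11 members passed in both genotypes, all in the same direction, which is 73.3% of the WT list and 52.4% of the KI list. For all genes, the share of higher calls was 60.2% in WT and 36.8% in KI as deposited, 48.1% and 48.3% after quantile normalization, and 51.1% and 51.5% after median-ratio scaling.

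**Figure D1:**
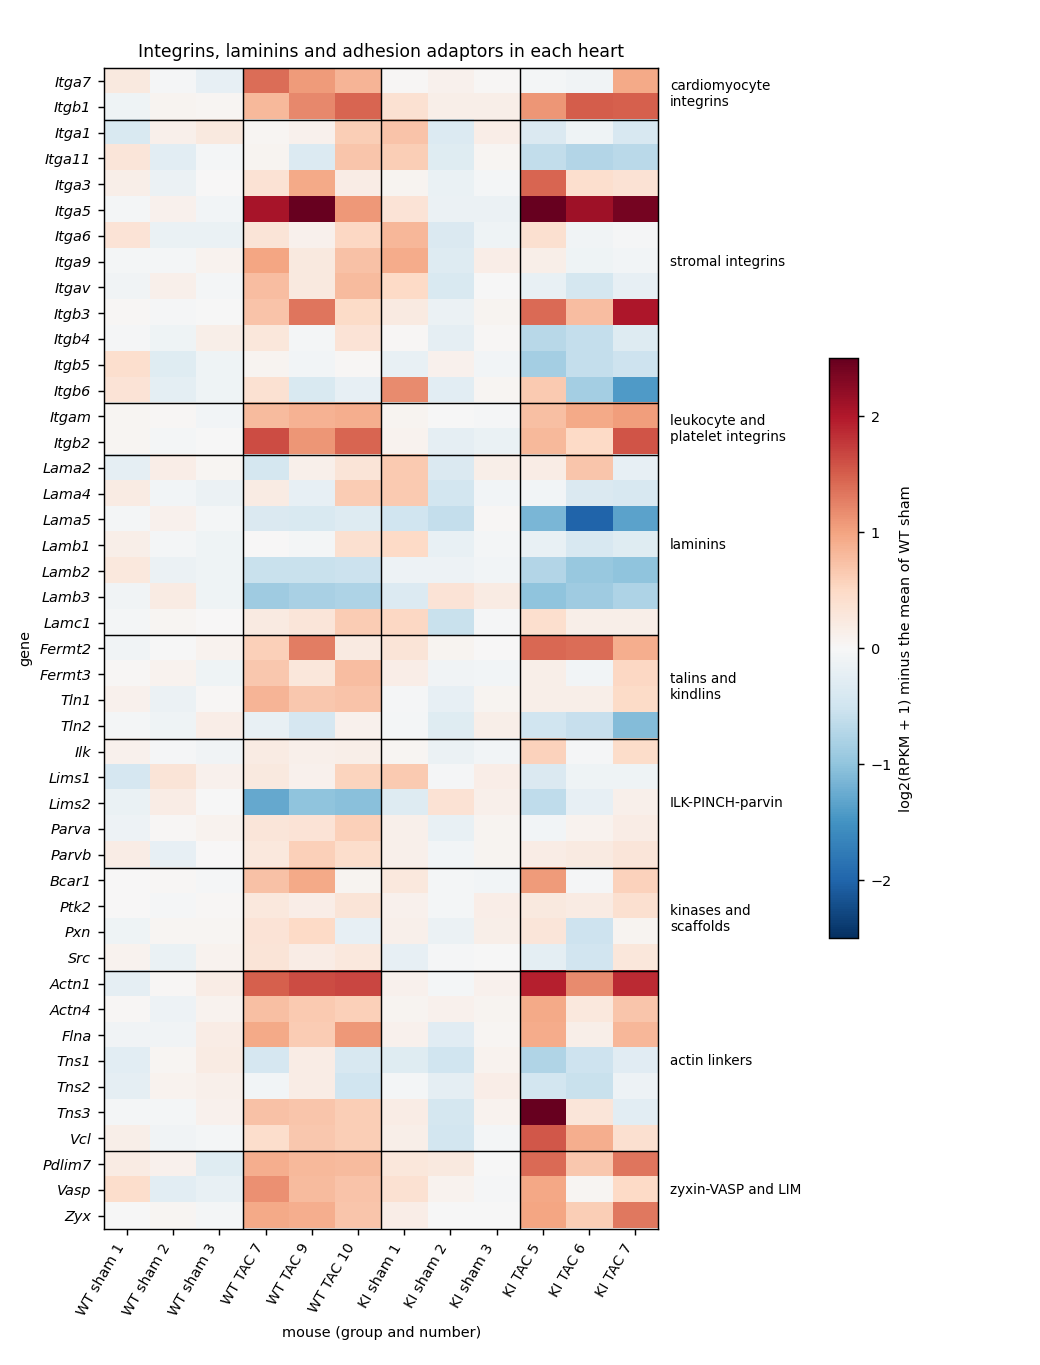
Level of 45 tested members (rows, by role) in each of the 12 hearts (columns, by group and mouse number), as log2(RPKM + 1) minus the mean of the 3 WT sham hearts, with colours cut at 2.5 in either direction. Itga5, Actn1 and Itgb1 are red in all 6 TAC hearts, and Lamb2 and Lamb3 are blue in all 6.

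Both chains of the cardiomyocyte laminin receptor rose in WT TAC hearts, and in KI TAC hearts the beta chain rose while the alpha chain did not pass the threshold. Itgb1 (chr8:128685654-128733200, GRCm38), the beta chain shared by most matrix-binding integrins, was at 38.5, 43.7 and 43.0 RPKM in WT sham hearts and at 73.7, 96.95 and 116 in WT TAC hearts. In KI hearts it was at 54.5, 46.4 and 46.4 RPKM after sham surgery and at 91.2, 121 and 119 after TAC. All 6 TAC hearts lay above all 6 sham hearts, and the change was alike in both genotypes, at 1.16 ± 0.20 (adjusted p = 0.00299) in WT and 1.15 ± 0.20 (adjusted p = 0.00143) in KI, which is 2.23-fold and 2.22-fold on the scale of RPKM + 1. Itga7 (chr10:128933818-128958282), the laminin-binding alpha chain of striated muscle, rose from 70.9, 58.4 and 51.8 RPKM in WT sham hearts to 159, 126 and 109 in WT TAC hearts (log2 fold change 1.10 ± 0.26 (SE), adjusted p = 0.0154). In KI hearts it was at 61.2, 64.7 and 61.1 RPKM after sham surgery and at 57.5, 56.6 and 117 after TAC. KI TAC mice 5 and 6 were thus at or below the sham level, mouse 7 was within the WT TAC range, and the change in KI was 0.22 ± 0.26 (adjusted p = 0.581). In these bulk samples, a change in the number of cells of a type and a change in RNA per cell cannot be told apart.

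The integrins of fibroblasts, vessels and other stromal cells moved mostly upward in WT TAC hearts and in both directions in KI TAC hearts. In WT TAC hearts 1 of the 11 tested passed the threshold, higher, where 11.6% of all genes passed. The change was positive for 10 of the 11 there, with a median of 0.32. In KI TAC hearts 6 passed it, 3 higher and 3 lower, where 23.3% of all genes passed. The change was positive for 3 of the 11 there. Itga5 (chr15:103344286-103366763), the alpha chain of the fibronectin receptor, had the largest change of all tested members in both genotypes on the scale of RPKM + 1, which compresses low genes such as Itgam. It was at 30.9, 34.8 and 30.8 RPKM in WT sham hearts and 138, 221 and 69.3 in WT TAC hearts (log2 fold change 1.97 ± 0.36 (SE), adjusted p = 0.00394). In KI, Itga5 was at 41.1, 28.9 and 28.9 RPKM after sham surgery and 304, 144 and 173 after TAC (log2 fold change 2.56 ± 0.36 (SE), adjusted p = 0.00035). The TAC hearts of each genotype varied by more than 2-fold among themselves, yet none reached down to a sham heart.

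Itgb3, the beta chain of a vitronectin receptor found on platelets and vessels, was at 0.790, 0.387 and 0.611 RPKM in KI sham hearts and 3.09, 1.62 and 5.20 in KI TAC hearts (log2 fold change 1.35 ± 0.27 (SE), adjusted p = 0.00308). WT sham hearts at 0.570, 0.494 and 0.527 RPKM and WT TAC hearts at 1.51, 2.87 and 1.12 did not overlap either, and that difference missed the threshold (0.84 ± 0.27 (adjusted p = 0.0563)). The 4 platelet markers in the table, of which 2 passed the filter, summed to 7.16 to 14.3 RPKM over all 12 hearts with every pair of groups overlapping, and the part of platelets in the rise of Itgb3 was not tested. Itga3, a laminin-binding alpha chain, was at 6.54, 5.44 and 5.95 RPKM in KI sham hearts and 18.7, 8.64 and 8.19 in KI TAC hearts, with KI TAC mouse 5 far above the others (log2 fold change 0.79 ± 0.27 (SE), adjusted p = 0.0482).

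A different set of stromal integrins was lower in KI TAC hearts. Itgb5, a beta chain of vitronectin receptors, fell from 59.9, 73.1 and 64.7 RPKM (KI sham) to 37.1, 44.9 and 47.0 (KI TAC) (log2 fold change -0.61 ± 0.20 (SE), adjusted p = 0.0436), while WT TAC hearts at 71.5, 65.2 and 69.7 lay within the WT sham range of 54.9 to 91.4. Itga11, a collagen receptor of fibroblasts, fell from 2.48, 0.840 and 1.34 to 0.495, 0.369 and 0.420 RPKM (log2 fold change -0.79 ± 0.26 (SE), adjusted p = 0.04). Itgb4, the beta chain of the hemidesmosome, fell from 1.17, 0.812 and 1.17 to 0.310, 0.409 and 0.705 RPKM (log2 fold change -0.48 ± 0.15 (SE), adjusted p = 0.0327). All 3 had KI TAC values below every KI sham value. Itga11 and Itgb4 are close to the filter, Itga11 was tested through its sham hearts, and neither reached 1 RPKM in a KI TAC heart. The 8 fibroblast markers summed to 153 to 212 RPKM in WT sham, 161 to 668 in WT TAC, 178 to 278 in KI sham and 129 to 211 in KI TAC hearts, and by the test 1 of 8 was lower in KI TAC hearts and none differed in WT. The 7 mural markers summed to 232 to 327 RPKM in KI sham and 211 to 242 in KI TAC hearts, and 2 of 7 (Abcc9 and Notch3) were lower by the test. The part of these cell types in the results for stromal integrins was not tested. The other 5 stromal integrins tested (Itga1, Itga6, Itga9, Itgav and Itgb6) passed in neither genotype against sham.

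Of the leukocyte and platelet integrins, Itgb2 and Itgam alone passed the filter, Itgam only through its TAC hearts, and both rose in the 2 genotypes. Itgb2 (chr10:77530252-77565708), the beta chain common to leukocyte integrins, was at 3.20, 2.94 and 3.00 RPKM in WT sham hearts and 11.6, 7.70 and 10.1 in WT TAC hearts (log2 fold change 1.40 ± 0.23 (SE), adjusted p = 0.00263). It was at 3.33, 2.49 and 2.60 RPKM in KI sham hearts and 6.07, 4.74 and 11 in KI TAC hearts (log2 fold change 1.05 ± 0.23 (SE), adjusted p = 0.00598). Its partner on myeloid cells, Itgam, was at 0.217, 0.194 and 0.122 RPKM in WT sham, 1.04, 1.15 and 1.20 in WT TAC, 0.236, 0.165 and 0.153 in KI sham and 0.979, 1.28 and 1.43 in KI TAC hearts. Its log2 fold changes were 0.86 ± 0.11 (adjusted p = 0.000474) in WT and 0.91 ± 0.11 (adjusted p = 0.000181) in KI, and no TAC heart overlapped with a sham heart. At such low levels the added 1 RPKM compresses the change, which reached 2.67 in WT and 2.88 in KI under another setting. The 10 leukocyte markers summed to 85.0 to 142 RPKM in WT sham and 188 to 255 in WT TAC hearts, and 8 of the 9 tested rose. In KI they summed to 92.5 to 120 RPKM after sham surgery and 113 to 147 after TAC, and 2 of 9 rose and 1 fell. The 3 neutrophil markers in the table summed to 0.395 to 1.27 RPKM in sham hearts, 3.69 to 9.87 in WT TAC and 4.18 to 20.3 in KI TAC hearts. The part of leukocyte number in the rise of Itgb2 and Itgam was not tested.

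Of the 8 laminin chains tested, 1 fell in WT TAC hearts and 3 fell in KI TAC hearts, and chains with higher levels are not described here. Lamb3, a beta chain of epithelial basement membranes, fell from 2.28, 3.01 and 2.25 RPKM in WT sham to 0.900, 0.981 and 1.05 in WT TAC hearts (log2 fold change -0.82 ± 0.17 (SE), adjusted p = 0.00779). KI sham hearts were at 1.76, 3.403 and 3.05 RPKM and KI TAC hearts at 0.739, 0.883 and 1.06 (log2 fold change -0.96 ± 0.17 (SE), adjusted p = 0.00163). Every TAC heart was below every sham heart of its genotype, but Lamb3 passed the filter only through its sham hearts, so that part of this fall was built in.

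The chains that make up the laminins of the adult cardiac basement membrane were far more abundant, and 2 of them fell in KI TAC hearts. Lamb2, the beta chain concentrated at synapses and in vessel and muscle basement membranes, was the most abundant laminin at 226, 224 and 235 RPKM in KI sham hearts and fell to 147, 127 and 122 after TAC (log2 fold change -0.79 ± 0.18 (SE), adjusted p = 0.00612). In WT hearts it was at 295, 222 and 228 RPKM after sham surgery and 166, 168 and 170.4 after TAC, without overlap but short of the threshold (-0.55 ± 0.18 (adjusted p = 0.0604)). Lama5 (chr2:180176373-180225859), the alpha chain of endothelial and epithelial laminins, fell from 61.6, 57.6 and 89.7 RPKM (KI sham) to 38.8, 21.1 and 34.2 (KI TAC) (log2 fold change -1.14 ± 0.23 (SE), adjusted p = 0.00347). WT hearts stood at 84.0, 94.2 and 84.1 RPKM after sham surgery and 67.9, 67.2 and 69.4 after TAC (-0.35 ± 0.23 (adjusted p = 0.339)), so that all 3 WT TAC hearts were below all 3 WT sham hearts as well. The 8 endothelial markers summed to 315 to 374 RPKM in KI sham and 336 to 389 in KI TAC hearts (1 of 8 higher and none lower by the test). The part of endothelial cells in the fall of Lama5 was not tested. Lama2, the alpha chain of the main muscle laminin, and Lama4, Lamb1 and Lamc1 passed in no comparison.

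**Figure D2:**
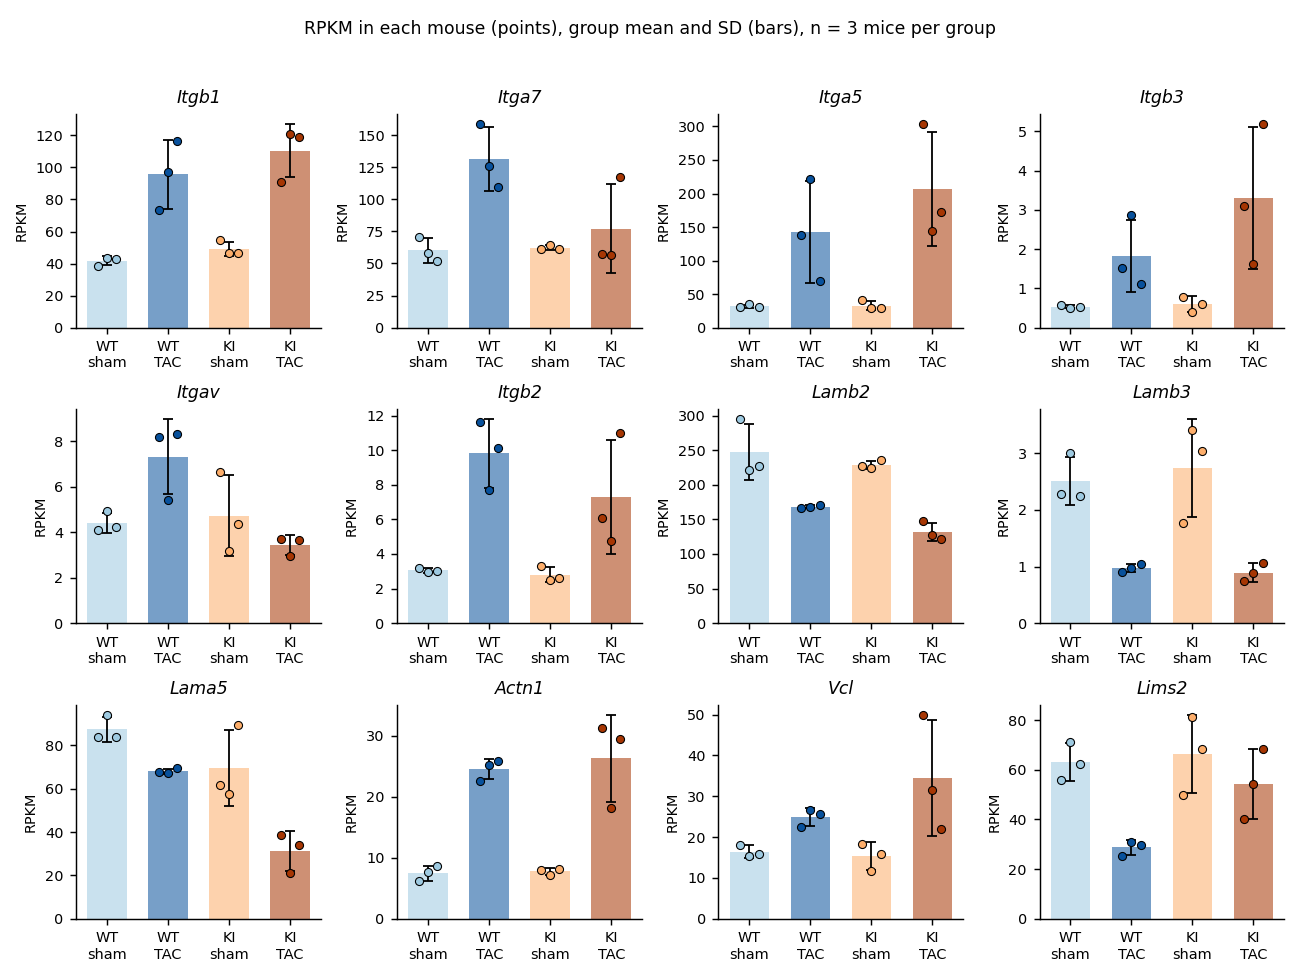
RPKM of 12 members in each mouse (points), with the group mean (bar) and SD (error bar), 3 mice per group in the order WT sham, WT TAC, KI sham, KI TAC, on linear axes from 0. Itgb1, Itga5 and Actn1 are higher in every TAC heart than in any sham heart, while Itga7 and Lims2 differ between WT TAC and most KI TAC hearts.

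Of the proteins that switch integrins on, the ubiquitous talin passed the threshold in WT hearts and kindlin-2 in KI hearts, both higher. Tln1 went from 44.3, 37.3 and 42.2 RPKM in WT sham to 75.1, 66.2 and 68.5 in WT TAC hearts (log2 fold change 0.75 ± 0.17 (SE), adjusted p = 0.0128). KI sham hearts were at 40.4, 35.5 and 42.9 RPKM and KI TAC hearts at 45.9, 45.4 and 57.7, higher without overlap but short of the threshold (0.32 ± 0.17 (adjusted p = 0.197)). Fermt2, the kindlin of muscle and connective tissue, was at 40.0, 33.5 and 32.1 RPKM in KI sham and 88.0, 85.2 and 60.9 in KI TAC hearts (log2 fold change 1.11 ± 0.24 (SE), adjusted p = 0.00545). In WT it was at 30.1, 31.6 and 33.9 RPKM after sham surgery and 48.8, 78.3 and 37.6 after TAC, higher without overlap but short of the threshold (0.70 ± 0.24 (adjusted p = 0.0774)). Tln2, the talin that predominates in mature striated muscle, fell from 13.3, 11.04 and 15.4 RPKM (KI sham) to 9.54, 8.98 and 6.00 (KI TAC) (log2 fold change -0.65 ± 0.20 (SE), adjusted p = 0.0345). In WT TAC hearts Tln2 ranged from 10.1 to 15.2 RPKM beside 12.8 to 15.7 in WT sham hearts. The kindlin of blood cells, Fermt3, was between 2.08 and 2.70 RPKM in sham hearts and did not pass in either genotype, at 0.58 ± 0.18 (adjusted p = 0.0507) in WT and 0.19 ± 0.18 (adjusted p = 0.462) in KI.

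The ILK-PINCH-parvin complex, which binds beta-integrin tails, had 1 member past the threshold. Lims2, or PINCH-2, was at 55.7, 71.3 and 62.4 RPKM in WT sham hearts and 25.4, 31.0 and 29.8 in WT TAC hearts (log2 fold change -1.11 ± 0.23 (SE), adjusted p = 0.00774). In KI it was at 49.9, 81.2 and 68.4 RPKM after sham surgery and 40.1, 54.2 and 68.3 after TAC, with overlapping ranges (-0.30 ± 0.23 (adjusted p = 0.37)). Ilk, the pseudokinase at the centre of the complex, was at 3.04, 2.70 and 2.55 RPKM in WT sham, 3.35, 3.10 and 3.181 in WT TAC, 2.88, 2.40 and 2.60 in KI sham and 4.62, 2.69 and 4.20 in KI TAC hearts. Its changes of 0.16 ± 0.16 (adjusted p = 0.541) in WT and 0.39 ± 0.16 (adjusted p = 0.0932) in KI did not pass. Lims1, Parva and Parvb did not pass either.

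None of the 4 kinases and scaffolds tested passed in any comparison. Ptk2, focal adhesion kinase, was at 2.39, 2.30 and 2.46 RPKM in WT sham, 3.08, 2.82 and 3.22 in WT TAC, 2.63, 2.27 and 2.77 in KI sham and 3.01, 2.88 and 3.44 in KI TAC hearts. Every TAC heart lay above every sham heart of its genotype, with log2 fold changes of 0.25 ± 0.13 (adjusted p = 0.216) in WT and 0.21 ± 0.13 (adjusted p = 0.259) in KI, and 95% intervals of -0.02 to 0.53 and -0.07 to 0.48. The values of Bcar1, Pxn and Src overlapped between KI sham and KI TAC hearts, while in WT those of Bcar1 (0.58 ± 0.27 (adjusted p = 0.175)) and Src (0.26 ± 0.18 (adjusted p = 0.359)) were higher in every TAC heart and those of Pxn overlapped.

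Of the 7 actin linkers, 3 rose in WT TAC hearts and 4 in KI TAC hearts, and none fell. Actn1, the non-muscle alpha-actinin that crosslinks actin at adhesions, was at 6.17, 7.65 and 8.63 RPKM in WT sham and 22.6, 25.2 and 25.8 in WT TAC hearts. In KI it was at 8.03, 7.13 and 8.08 RPKM after sham surgery and 31.3, 18.1 and 29.5 after TAC. Its log2 fold change was 1.60 ± 0.20 (adjusted p = 0.000377) in WT and 1.61 ± 0.20 (adjusted p = 0.000192) in KI, about 3.03-fold in WT. Flna, filamin A, was at 30.8, 30.9 and 37.5 RPKM in WT sham and 64.1, 51.6 and 70.6 in WT TAC hearts (log2 fold change 0.88 ± 0.22 (SE), adjusted p = 0.0213). In KI, Flna was at 35.5, 26.9 and 34.1 RPKM after sham surgery and 63.3, 36.4 and 59.1 after TAC (log2 fold change 0.67 ± 0.22 (SE), adjusted p = 0.0441). KI TAC mouse 6 was the lowest TAC heart for Actn1, Flna and Actn4 alike. Actn4, another crosslinking alpha-actinin, was at 32.6, 28.9 and 34.0 RPKM in WT sham and 54.0, 50.5 and 48.6 in WT TAC hearts (log2 fold change 0.67 ± 0.19 (SE), adjusted p = 0.0323). In KI, Actn4 was at 33.1, 34.4 and 33.2 RPKM after sham surgery and 62.2, 38.4 and 52.1 after TAC (log2 fold change 0.56 ± 0.19 (SE), adjusted p = 0.0432). Vcl, vinculin, was at 18.4, 11.72 and 15.8 RPKM in KI sham and 49.95, 31.5 and 21.96 in KI TAC hearts (log2 fold change 1.06 ± 0.25 (SE), adjusted p = 0.00846). WT sham hearts were at 18.2, 15.4 and 15.8 RPKM and WT TAC hearts at 22.6, 26.6 and 25.6, without overlap but short of the threshold (0.57 ± 0.25 (adjusted p = 0.156)). The tensins Tns1, Tns2 and Tns3 did not pass, and Tns3 reached 27.7, 5.23 and 3.17 RPKM in the KI TAC hearts, so that mouse 5 stood far from the other two.

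Of the zyxin-VASP and LIM proteins, which act where adhesions meet growing or strained actin, all 3 tested rose in WT and 2 rose in KI. Zyx was at 15.7, 16.5 and 15.3 RPKM in WT sham, 31.2, 30.4 and 26.1 in WT TAC, 17.7, 15.6 and 15.7 in KI sham and 32.3, 24.9 and 40.7 in KI TAC hearts. It changed by 0.84 ± 0.18 (adjusted p = 0.0104) in WT and 0.93 ± 0.18 (adjusted p = 0.0031) in KI. Pdlim7, a PDZ-LIM protein of actin filaments, was at 13.4, 12.6 and 9.16 RPKM in WT sham, 22.5, 21.2 and 20.9 in WT TAC, 14.2, 13.9 and 11.5 in KI sham and 32.7, 19.0 and 30.8 in KI TAC hearts. It changed by 0.84 ± 0.21 (adjusted p = 0.0212) in WT and 0.97 ± 0.21 (adjusted p = 0.00545) in KI. Vasp, which elongates actin filaments, rose from 25.3, 15.2 and 16.0 RPKM in WT sham to 41.9, 32.5 and 30.7 in WT TAC hearts (log2 fold change 0.89 ± 0.25 (SE), adjusted p = 0.0358). KI TAC hearts at 36.7, 19.1 and 26.3 RPKM overlapped with KI sham hearts at 24.2, 19.6 and 18.1, and Vasp did not pass there (0.35 ± 0.25 (adjusted p = 0.331)).

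**Figure D3:**
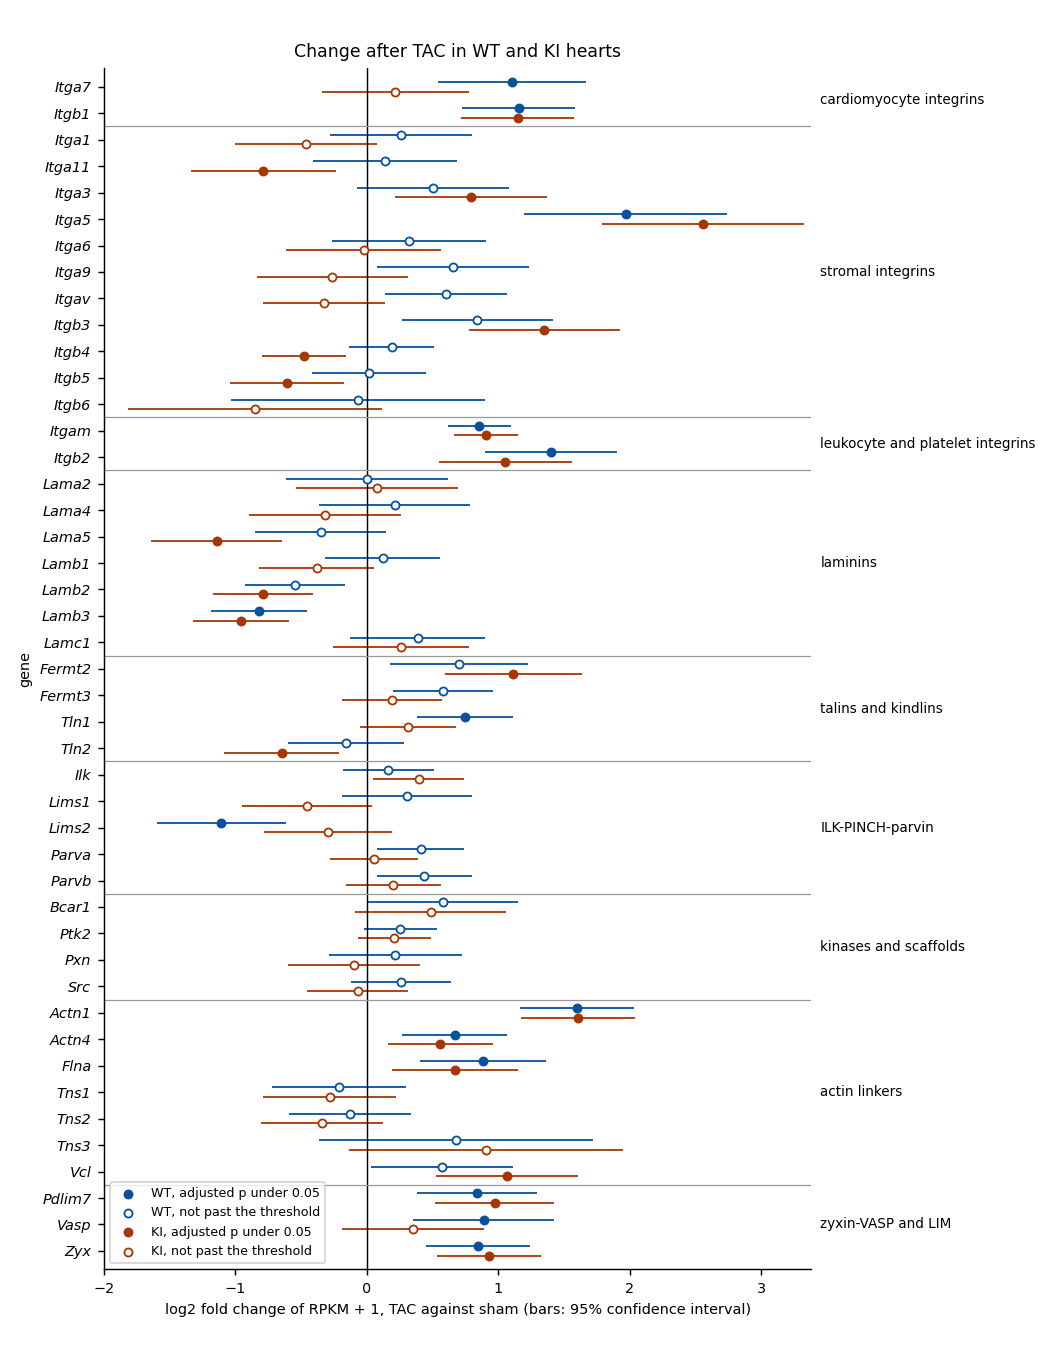
Log2 fold change of RPKM + 1 for TAC against sham in WT (blue) and KI (brown) hearts, with 95% confidence intervals from limma, for 45 members by role, filled where adjusted p was under 0.05. Actn1, Itgb1, Zyx and Itgam have nearly the same change in both genotypes, and Itgav, Itga7, Lama5 and Lims2 lie further apart.

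Several of these calls were lost when 1 mouse was left out. In WT, 7 of the 15 calls (Actn1, Itga5, Itgam, Itgb1, Itgb2, Lamb3 and Lims2) were kept whichever mouse was left out, and 7 members passed without WT TAC mouse 7 and 8 without WT sham mouse 2. In KI, 14 of the 21 were kept, the exceptions being Actn4, Flna, Itga3, Itga11, Itgb4, Itgb5 and Tln2, and 14 members passed without KI sham mouse 1 or mouse 3. Rescaling of the libraries ended calls in WT, Actn4 and Vasp among them, and those of Itga3, Itga11, Itgb5 and Tln2 in KI.

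Promoter sequence was set beside the members that changed, since adhesion and actin genes include known targets of SRF (with its cofactors of the MRTF family), of TEAD (the DNA-binding partner of YAP) and of AP-1, all of which respond to load in muscle or stroma. Windows of the 250 bases before the annotated start were taken from RefSeq (GRCm38.p6) and searched on both strands for the SRF site (the CArG box), for GGAATG (TEAD) and for TGANTCA (AP-1), none of which is part of another. Of the 26 members that passed in at least 1 comparison, 19 had a window. A CArG box was found in 2 of them (Fermt2 and Vcl), where 1.62% of 27025 genes had one. Among all 33 tested members with a window 4 had one, the others being Itgb6 and Lama2, which passed in no comparison. GGAATG was found in 5 (Actn4, Flna, Itgb1, Lamb3 and Vcl), where 14.4% of genes had it, and TGANTCA in 2 (Actn4 and Zyx), where 7.82% had it. No other tested member with a window held either, which makes 5 and 2 of 33, shares close to those of all genes. Lamb3 fell and the others rose in at least 1 genotype, and the large risers Itga5 and Actn1 had none of the 3 in the window. The windows of Vcl and Itgb1, and the parts of the Fermt2, Actn4 and Zyx windows that overlap no annotated exon, are given here 5′ to 3′ along the gene, with the motif letters in capitals.
Vcl, chr14:20929148-20929397 (plus strand), CArG box and GGAATG: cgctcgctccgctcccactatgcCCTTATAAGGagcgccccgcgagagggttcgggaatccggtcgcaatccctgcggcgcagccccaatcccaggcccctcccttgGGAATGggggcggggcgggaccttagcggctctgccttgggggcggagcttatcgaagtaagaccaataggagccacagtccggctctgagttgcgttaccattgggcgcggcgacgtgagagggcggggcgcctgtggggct
Itgb1, chr8:128685404-128685653 (plus strand), GGAATG: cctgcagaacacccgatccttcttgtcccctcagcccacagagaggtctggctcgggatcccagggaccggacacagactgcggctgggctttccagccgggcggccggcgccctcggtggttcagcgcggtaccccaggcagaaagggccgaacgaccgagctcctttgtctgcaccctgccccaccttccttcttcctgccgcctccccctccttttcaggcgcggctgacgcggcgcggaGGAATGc
Fermt2, chr14:45530119-45530315 (minus strand), CArG box: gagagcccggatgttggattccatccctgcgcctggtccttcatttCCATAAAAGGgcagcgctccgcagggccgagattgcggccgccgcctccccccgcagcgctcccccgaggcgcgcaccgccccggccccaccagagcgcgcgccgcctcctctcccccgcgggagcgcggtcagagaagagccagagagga
Actn4, chr7:28962341-28962582 (minus strand), GGAATG on the opposite strand and TGANTCA: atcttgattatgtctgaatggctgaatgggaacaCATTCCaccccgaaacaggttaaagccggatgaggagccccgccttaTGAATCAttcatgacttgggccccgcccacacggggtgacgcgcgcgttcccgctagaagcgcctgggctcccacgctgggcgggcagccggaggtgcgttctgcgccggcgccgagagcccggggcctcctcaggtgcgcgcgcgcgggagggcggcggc
Zyx, chr6:42349706-42349779 (plus strand), TGANTCA: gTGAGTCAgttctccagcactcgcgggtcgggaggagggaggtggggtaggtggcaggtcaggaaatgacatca
The CArG box of Vcl begins 227 bases and that of Fermt2 204 bases before the start, and the GGAATG of Itgb1 begins 7 bases before it. These are matches of letters, and binding was not measured.

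Between the genotypes after TAC, 6 members passed the threshold, 2 higher and 4 lower in KI, where 11% of all genes passed, 2.92% higher and 8.13% lower. Values did not overlap for 14 members (29.5% of all genes). The shares of members that passed and that did not overlap were both close to those of all genes. The comparison uses the same TAC hearts as those above. The median log2 difference was −0.25 over the members and −0.12 over all genes, and differences relative to that median of all genes are given for the members that passed. Of all genes called, 26.4% were higher as deposited, 46.0% after quantile normalization and 51.6% after median-ratio scaling.

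Itgav (chr2:83724397-83806916), the alpha chain of the vitronectin receptors, was at 8.21, 5.41 and 8.35 RPKM in WT TAC and 3.72, 2.96 and 3.65 in KI TAC hearts (log2 fold change -0.89 ± 0.22 (SE), adjusted p = 0.0232, -0.77 relative to all genes). Against their own sham hearts at 4.08, 4.92 and 4.23 in WT and 6.67, 3.17 and 4.37 in KI, the WT TAC hearts were all higher (0.60 ± 0.22 (adjusted p = 0.0868)) and the KI TAC hearts overlapped (-0.33 ± 0.22 (adjusted p = 0.291)). Itgb4 was at 1.59, 1.05 and 1.68 RPKM in WT TAC and lower in KI TAC hearts (log2 fold change -0.73 ± 0.15 (SE), adjusted p = 0.0122, -0.60 relative to all genes). Itgb5 was lower in KI TAC hearts by the same test (log2 fold change -0.67 ± 0.20 (SE), adjusted p = 0.0483, -0.55 relative to all genes). Lama5 had the largest difference on the scale of RPKM + 1, which compresses low genes such as Itgb4, with KI TAC hearts all below WT TAC hearts (log2 fold change -1.14 ± 0.23 (SE), adjusted p = 0.0115, -1.02 relative to all genes).

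Lims2 was among those higher in KI. All 3 KI TAC hearts exceeded the WT TAC hearts in Lims2 (log2 fold change 0.86 ± 0.23 (SE), adjusted p = 0.0303, 0.99 relative to all genes). Itga7 and Itga11 just missed the threshold, at -0.83 ± 0.26 (adjusted p = 0.0549) and -0.81 ± 0.26 (adjusted p = 0.0559). Itgb1, with a 95% interval of -0.21 to 0.65 for the difference, and Actn1, with -0.37 to 0.50, gave no difference past the threshold. The leukocyte markers summed to 188 to 255 RPKM in WT TAC and 113 to 147 in KI TAC hearts, 4 of 9 being lower. The mural markers summed to 282 to 294 and 211 to 242 RPKM, 2 of 7 being lower. The 3 Schwann cell markers in the table summed to 3.01 to 4.08 RPKM in WT TAC and 1.65 to 1.71 in KI TAC hearts, beside 2.16 to 2.66 in WT sham and 1.95 to 4.29 in KI sham hearts. The 5 erythroid markers summed to 74.8 to 114 RPKM in WT TAC and 97.7 to 257 in KI TAC hearts, beside 146 to 171 in WT sham and 134 to 244 in KI sham hearts, and none passed the test in any comparison. The part of these cell types in the differences of Itgav, Itgb4, Itgb5 and Lama5 was not tested. Rescaling of the libraries ended calls here as well, that of Itgb5 among them. A fit of these 2 groups alone called 0 members, and none of the 6 calls was kept whichever mouse was left out. No member passed without WT TAC mouse 7 or without KI TAC mouse 6, 2 passed without WT TAC mouse 10, and 10 without KI TAC mouse 7.

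**Figure D4:**
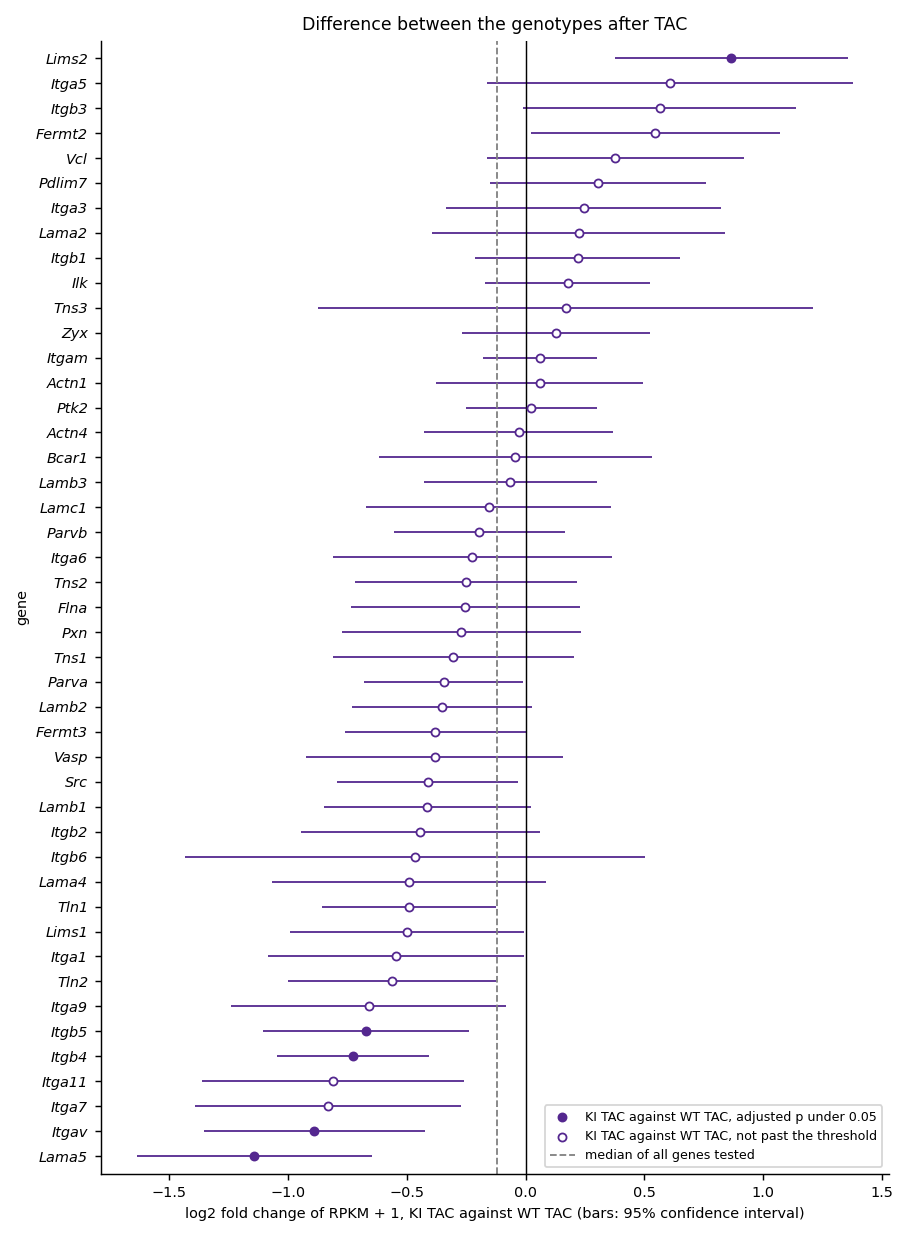
Log2 fold change of RPKM + 1 in KI TAC against WT TAC hearts for 45 members in order of size, with 95% confidence intervals from limma, filled where adjusted p was under 0.05. Lims2 lies highest and Lama5 and Itgav lowest, and the dashed line marks the median of all genes tested at −0.12.

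Without TAC, the genotypes did not differ in any member by the test. No member passed in KI sham against WT sham hearts (0.0178% of all genes passed), and none had an unadjusted p under 0.05. The log2 differences ran from −0.35 for Lama5 to 0.32 for Itgb6, and Itgb1 was the only member without overlap (3.27% of all genes), at 54.5, 46.4 and 46.4 RPKM in KI and 38.5, 43.7 and 43.0 in WT. The interaction of genotype and surgery asks whether the TAC change itself differed. It passed for no tested member and for none of the 11240 genes tested (0%), although 1668 of these had an unadjusted p under 0.05. The median log2 difference of changes was −0.22 over the members. Over all genes it was −0.13 as deposited and −0.0018 after median-ratio scaling. Among the members, 10 had an unadjusted p under 0.05, and 8 of these had a lower change in KI. They were led by Itgb4 (unadjusted p = 0.00694 in limma, adjusted p = 0.197, log2 difference of changes -0.67) and Itgav (unadjusted p = 0.00889, adjusted p = 0.213, log2 difference -0.93). A member called in 1 genotype and not in the other was therefore not shown to respond differently.

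Other adhesion adaptors, a list of 60 genes outside the members of which 54 were tested, had 15 higher and 2 lower in WT TAC hearts and 12 higher and 4 lower in KI TAC hearts, with median log2 fold changes of 0.35 and 0.27. Of all genes, 6.96% were higher and 4.6% lower in WT, and 8.57% higher and 14.7% lower in KI. The medians of all genes were 0.035 and −0.10. Fhl1, a LIM protein of the sarcomere, was at 42.2, 50.6 and 41.3 RPKM in WT sham and 605, 508 and 276 in WT TAC hearts (log2 fold change 3.27 ± 0.28 (SE), adjusted p = 4.95e-05). In KI, Fhl1 was at 52.1, 42.8 and 36.8 RPKM after sham surgery and 325, 445 and 519.7 after TAC (log2 fold change 3.25 ± 0.28 (SE), adjusted p = 1.36e-05). Flnc, the muscle filamin, was at 151, 132 and 160.2 RPKM in WT sham and 916, 1196 and 388 in WT TAC hearts (log2 fold change 2.34 ± 0.49 (SE), adjusted p = 0.00834). In KI, Flnc was at 176, 113 and 158 RPKM after sham surgery and 4122, 1381 and 848 after TAC (log2 fold change 3.52 ± 0.49 (SE), adjusted p = 0.000329). On the scale of RPKM + 1, both rises were larger than that of any member in WT. Enah, a relative of VASP, rose in both genotypes, at 1.77 ± 0.32 (adjusted p = 0.00381) in WT and 1.56 ± 0.32 (adjusted p = 0.00379) in KI. Sorbs2, a vinculin-binding adaptor, and Pdlim5, a Z-disc PDZ-LIM protein, rose in WT, at 1.51 ± 0.22 (adjusted p = 0.00103) and 1.28 ± 0.24 (adjusted p = 0.00475). In KI they missed the threshold, at 0.58 ± 0.22 (adjusted p = 0.0751) and 0.69 ± 0.24 (adjusted p = 0.0528). Pdlim3 and Csrp3, LIM proteins of the Z-disc, rose in both genotypes, Pdlim3 at 1.21 ± 0.26 (adjusted p = 0.00958) in WT and 2.08 ± 0.26 (adjusted p = 0.000184) in KI and Csrp3 at 1.17 ± 0.24 (adjusted p = 0.00846) in WT and 1.78 ± 0.24 (adjusted p = 0.000298) in KI. Kank2, which binds talin, fell from 109, 76.7 and 96.2 RPKM (KI sham) to 24.7, 19.2 and 40.5 (KI TAC) (log2 fold change -1.76 ± 0.26 (SE), adjusted p = 0.000471), below the WT TAC hearts at 97.4, 65.4 and 88.0. Between the TAC groups 4 of the 54 differed, a smaller share than the 11% of all genes. Pdlim3 was higher in KI (0.92 ± 0.26 (adjusted p = 0.0384)), and Kank2, Efs and Sorbs2 were lower (-1.58 ± 0.26 (adjusted p = 0.00549), -0.94 ± 0.20 (adjusted p = 0.0162) and -0.79 ± 0.22 (adjusted p = 0.0372)).

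Integrin ligands and basement membrane genes were a list of 49, of which 37 were tested. In WT TAC hearts 12 were higher and 1 lower, with a median log2 fold change of 0.53. Of all genes, 6.96% were higher and 4.6% lower there, with a median of 0.035. In KI TAC hearts 8 were higher and 6 lower, with a median of −0.10. For all genes these were 8.57%, 14.7% and −0.10. The lower share and the median in KI were thus close to those of all genes. Tnc, tenascin-C, was at 0.147 to 0.185 RPKM in WT sham, 11.4 to 44.9 in WT TAC, 0.163 to 1.33 in KI sham and 2.02 to 7.04 in KI TAC hearts. It rose by 4.58 ± 0.45 (adjusted p = 5.7e-05) in WT and 1.84 ± 0.45 (adjusted p = 0.00973) in KI. Thbs1, thrombospondin-1, was at 20.6 to 35.5 RPKM in WT TAC and 46.7 to 188 in KI TAC hearts, and Ccn2 rose alike in both, at 3.32 ± 0.36 (adjusted p = 0.000153) and 3.35 ± 0.36 (adjusted p = 7.21e-05). Spp1, osteopontin, and Postn, periostin, rose in WT (3.10 ± 0.30 (adjusted p = 5.7e-05) and 2.76 ± 0.67 (adjusted p = 0.0181)). Both missed the threshold in KI, at 0.81 ± 0.30 (adjusted p = 0.0662) and 1.02 ± 0.67 (adjusted p = 0.289). Postn varied widely in WT TAC hearts, at 15.2, 3.41 and 68.6 RPKM, and the part of fibroblasts in its rise was not tested. Ccn1 rose in KI (3.28 ± 0.66 (adjusted p = 0.00343)) and missed the threshold in WT (1.38 ± 0.66 (adjusted p = 0.191)), and Col4a1 rose in both, at 1.29 ± 0.37 (adjusted p = 0.0382) in WT and 1.50 ± 0.37 (adjusted p = 0.0107) in KI. Between the TAC groups 8 of the 37 differed, and 7 of them were lower in KI. Of all genes, 11% passed, 2.92% higher and 8.13% lower. Fn1, fibronectin, the ligand of the Itga5-Itgb1 receptor, was at 47.0, 28.0 and 73.7 RPKM in WT TAC and 12.7, 10.2 and 10.3 in KI TAC hearts (log2 fold change -1.97 ± 0.32 (SE), adjusted p = 0.00549), while the difference in Itga5 was 0.61 ± 0.36 (adjusted p = 0.268). Tnc, Spp1 and Col15a1 were also lower in KI (-2.41 ± 0.45 (adjusted p = 0.00832), -2.23 ± 0.30 (adjusted p = 0.00395) and -1.73 ± 0.44 (adjusted p = 0.0268)), and Thbs1 was higher (1.74 ± 0.42 (adjusted p = 0.0232)).

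The 13 members below the filter ranged from 0.0111 to 1.66 RPKM over the 12 hearts and were not tested. They were Itga2, Itga2b, Itga4, Itga8, Itga10, Itgal, Itgax, Itgb7, Itgb8, Lama3, Lamc3, Tes and Itgb3bp. Tes, a LIM protein of adhesions, was at 0.497, 0.422 and 0.460 RPKM in KI sham and 1.66, 1.10 and 0.673 in KI TAC hearts, and Itgax, the alpha chain of dendritic cells and some macrophages, at 0.246, 0.0704 and 0.0852 in WT sham and 1.04, 0.429 and 0.757 in WT TAC hearts. Both were without overlap in these comparisons. All 3 KI TAC hearts were below all 3 WT TAC hearts for 4 of the 13 (Itga4, Itgal, Itgax and Itgb7) and above them for 2 (Itga2b and Tes), beside 29.5% of all genes tested without overlap in either direction.

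The members whose log2(RPKM + 1) ran most closely with Itgb1 over the 12 hearts were Itgam (Pearson's r = 0.97), Actn1 (0.92), Zyx (0.88), Ptk2 (0.85) and Itga5 (0.84). The 12 hearts fall into sham and TAC groups, so these values describe a shared difference between the surgeries and carry no test.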

How the data were processed

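RNA of 12 hearts was sequenced after poly(A) selection in strand-specific libraries. Per the submitters' processing notes and the methods, the authors trimmed reads with Trimmomatic 0.39, mapped them to GRCm38 with HISAT2 2.2.1 and counted them on genes with HTSeq 0.6.1. The authors deposited 1 table in RPKM: multiplied by exon length (GENCODE M21), the deposited RPKM values of each mouse summed to 997702 to 1002226, so no further scaling between libraries was seen. How the 13552 genes were chosen is not given in the sources used here. Reads recovered from low values (95.3% to 98.1% whole within 0.1 read) gave the depths.

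Groups came from the labels for genotype and treatment. Nothing says more of the 3 samples of a group than that they are separate mice. The model was limma (version 3.58.1, R 4.3.3) with a moderated variance that follows the mean, two-sided, on log2(RPKM + 1) of 11240 genes in all 12 mice as 4 groups, and a Benjamini-Hochberg adjusted p of 0.05 was the threshold. An exact permutation test of 3 against 3 mice cannot go below 0.1, so none is given. The methods name a count test; RPKM are not counts, so reads recovered from them were used in alternatives alone. Cell type markers are sums of RPKM. The model was tested on simulated data.

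Members and lists were chosen with earlier results of these data known. Per-mouse values are given for called members whose groups do not overlap, at most 5 per role and comparison by size, and for Itgb1, Itga7, Ilk and Ptk2, and of each pathway list at most 5 called genes per comparison are named. Tns3, Tes, Itgax and other members outside that rule were named after their values were seen. Markers of lymphocytes, atrium, lung and skeletal muscle were not analysed here. Promoters are from RefSeq. Alternatives were a pseudocount of 0.1, no filter, quantile normalization, scaling by median ratios, voom weights on recovered reads, a fit of the 2 groups compared, an adjusted p of 0.10 and leaving out each mouse. voom with median ratios was added after the data had been seen. One tested member is counted but not reported by name and not drawn here.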

Additional observations from a re-analysis of the deposited data

Results flagged for a closer look

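Itgb7, the beta chain of lymphocyte integrins, had TAC values on opposite sides of the sham values in the 2 genotypes, with no test. It was at 0.753, 0.717 and 0.355 RPKM in WT sham hearts and at 1.40, 0.939 and 1.15 in WT TAC hearts, and at 0.502, 0.682 and 0.456 in KI sham hearts and 0.262, 0.296 and 0.366 in KI TAC hearts. Every WT TAC heart was above, and every KI TAC heart below, its sham group, with a log2 ratio of group means of −0.83 in KI. The gene lies below the filter, on 22 to 100 reads per heart, and the difference between the genotypes was not tested.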

How the results depend on the processing

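Apart from leaving out 1 mouse, every alternative setting kept the number of members called within 1.5 times of the reported one for WT TAC (15) and KI TAC (21) against sham. It ran from 13 to 20 in WT and from 16 to 22 in KI. For KI TAC against WT TAC (6 members) it was 0 in a fit of the 2 groups compared and 10 at an adjusted p threshold of 0.10. It was 4 to 9 under the others of these settings. Leaving out 1 mouse gave 7 to 17 members in WT, 14 to 21 in KI and 0 to 10 between the TAC groups. The cause of these losses was not tested. No member changed direction in a call. The interaction and the comparison of the sham groups stayed at 0 members called. Mice with the same number in WT and KI sham did not deviate together (r = −0.22, −0.30 and 0.44), so the numbers were not taken as pairs, and a paired fit with the replicate number as a block on the sham groups called 0 members. TAC groups share too few numbers for such a fit. Members close to 1 RPKM rest on few reads, with Itgam on 15 to 227 per heart.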
